A study of Mus musculus with 11 samples.

Results

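The scavenger receptors are surface and lysosomal proteins through which macrophages and microglia bind and take in modified lipoproteins, aggregated proteins, lipids and debris. Their main structural families differ widely. The class A receptors carry a collagen-like stalk, the class B receptors cross the membrane at both ends of the protein, and others bind through lectin-like domains. In the brain, microglia use several of them to take up amyloid and lipid particles, and the macrophages of the brain borders are marked by the mannose receptor. The genes *Msr1*, *Marco*, *Cd36*, *Mrc1*, *Scarb1*, *Scarb2*, *Cd68* and *Olr1* were taken by gene symbol, and all 8 were among the 36529 genes listed in the count tables. Their values were not a criterion, but earlier results of these data were known when they were chosen.

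Levels were measured by RNA-sequencing in 11 samples of BV2 cells, an immortalised microglial line from C57BL/6 mice, that fell into 4 groups. In the first experiment, 3 samples received residues 1 to 151 of ApoE4 (nApoE4) at 25 μg/ml for 5 h, and 3 untreated samples served as their controls. In the second experiment, 2 samples received the same stretch of ApoE3 (nApoE3), with dose and duration unchanged, and were compared with 3 untreated samples of their own. The fragments differ by a single residue, cysteine in ApoE3 and arginine in ApoE4, and both carried a histidine tag. The sources differ on whether untreated cells were given conditioned media or a PBS vehicle. Each fragment was tested in its own experiment, so fragment and experiment cannot be told apart in a direct comparison of levels. The study's methods speak of independent measurements, but neither they nor the labels say that these replicates came from separate cultures, and if they did not, the p-values measure only the spread between these samples, which may be technical.

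The samples held 39732710 to 44162511 counts in the nApoE4 experiment and 55809688 to 69768666 in the nApoE3 experiment. Among defining genes of microglia and macrophages, *Csf1r* averaged 699 to 799 CPM (counts per 1000000 of the normalized library size) in the 4 groups and *Spi1* 214 to 678 CPM, while *P2ry12* had 0 counts in every sample and *Aif1* averaged at most 0.0958 CPM. The 10 markers of this type summed to between 1570 and 1780 CPM in the controls and between 2070 and 2290 CPM in treated samples. Of these markers, *Spi1* and *Ptprc* had higher means with each fragment, while *Csf1r*, *Itgam* and *Tmem119* had lower ones. Mean *Itgam* went from 178 to 137 CPM with nApoE4 and from 80.8 to 65.8 CPM with nApoE3. Summed markers of fibroblasts and of T cells did not exceed 0.39 CPM in any sample, those of astrocytes 7.03 CPM, those of neurons 6.27 CPM and those of oligodendrocytes 25.5 CPM. The 4 endothelial markers summed to between 150 and 177 CPM in the nApoE4 controls and between 62.5 and 71.7 CPM with nApoE4, nearly all of it *Kdr*, while *Cldn5* was at 0 in every sample. In the nApoE3 experiment this sum was 64 to 66.3 CPM in the controls and 42.8 to 47.9 CPM with nApoE3. The part of these shifts in the results was not tested. Overlaps of the markers with other genes were not checked, and ambiguous reads were left out. A marker at or near 0 need not mean absent RNA. Among the nApoE4 controls, *Trem2* stood at 60.5 CPM in replicate 1 and at 2.5 and 1.33 CPM in the other two. Replicate 2 of these controls stood farthest from its group, with a chi-square per degree of freedom over genes of 25.8 and 47.9 against the others, which had 7.85 between them, and no pair of libraries agreed within counting noise. The 7 members tested kept their direction and call with nApoE4 without either library. The log2 fold change of *Marco* was then 4.29 without replicate 1 and 4.45 without replicate 2, and that of *Cd68*, the smallest, was −0.30 (adjusted p = 0.0221 from edgeR) and −0.23 (adjusted p = 0.00354).

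The DNA just before the start of transcription is shown for *Marco*, the member that rose most, and for *Mrc1* and *Scarb2*, both lower with each fragment. The sequences are those of RefSeq on GRCm38.p6 (6 of the 8 members matched, the exceptions being *Msr1* and *Scarb1*), written 5′ to 3′ on the strand of the gene and ending at the base before the start. Capitals mark a match to a searched motif.
Marco, chr1:120505025-120505274, minus strand: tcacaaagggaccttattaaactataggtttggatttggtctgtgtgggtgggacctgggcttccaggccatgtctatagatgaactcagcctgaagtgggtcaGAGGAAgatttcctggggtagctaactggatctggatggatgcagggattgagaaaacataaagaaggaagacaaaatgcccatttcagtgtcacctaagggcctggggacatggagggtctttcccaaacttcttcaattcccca
Mrc1, chr2:14229164-14229413, plus strand: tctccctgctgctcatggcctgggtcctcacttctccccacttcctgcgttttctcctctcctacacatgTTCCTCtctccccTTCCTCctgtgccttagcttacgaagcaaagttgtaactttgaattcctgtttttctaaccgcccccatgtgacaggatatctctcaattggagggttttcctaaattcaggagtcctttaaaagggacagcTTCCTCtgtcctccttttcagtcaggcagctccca
Scarb2, chr5:92505658-92505907, minus strand: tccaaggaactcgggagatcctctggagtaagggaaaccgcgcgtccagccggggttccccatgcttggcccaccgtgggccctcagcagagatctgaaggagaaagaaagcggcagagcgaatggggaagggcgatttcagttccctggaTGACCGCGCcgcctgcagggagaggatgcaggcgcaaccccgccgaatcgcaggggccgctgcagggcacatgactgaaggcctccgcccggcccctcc

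Both strands of these 250 bases were searched. The purine-rich letters GAGGAA, of the kind bound by PU.1 (the product of *Spi1*, which directs macrophage development), lay at −146 in *Marco*, counting the base before the start as −1, and their complement lay at −180, −167 and −35 in *Mrc1*. These letters occurred in the windows of *Cd68* and *Olr1* too, 4 of 6 members, and in 23.3% of the 32851 promoters searched. The window of *Cd36* and most of that of *Olr1* lay inside the gene span given below, before a start within it. The bases after the *Cd36* start were not found in the transcripts of that gene, so its window may not be a promoter of *Cd36*. The antioxidant response letters TGACNNNGC lay at −99 in *Scarb2* and in 10.2% of promoters. The AP-1 letters TGANTCA were in the windows of *Cd68* and *Olr1* and in 6.75% of promoters. No member's window held the kappa B motif (0.356% of promoters), the E-box CACGTG (6.02%), the interferon response motif (2.98%) or the TATA box TATAAA (12.4%). No match overlapped one of another motif, and the AP-1 letters read the same on both strands.

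With nApoE4, *Marco* was higher than in untreated cells, 6 other members were lower, and *Olr1* had too few counts to test. With nApoE3, *Marco*, *Msr1* and *Cd68* were higher, *Mrc1*, *Scarb1* and *Scarb2* were lower, and *Cd36* did not pass the threshold. A call is an adjusted p under 0.05 from edgeR's quasi-likelihood test over all genes tested. In the nApoE4 experiment, 57.2% of the 14240 genes tested were called (28.6% higher, 28.6% lower), and in the nApoE3 experiment 67.7% of 14817 (33.1% higher, 34.6% lower), so that a call by itself was common. A fold change above 2 as well was found in 17.7% of genes with nApoE4 (10.2% higher, 7.46% lower) and in 16.2% with nApoE3 (9.6% higher, 6.57% lower), and among the members in *Marco* with both. The median log2 fold change of the 7 members tested was −0.47 with nApoE4 and −0.16 with nApoE3, beside 0.001 and −0.003 over all genes. In these cultures a smaller number of cells that express a gene and less of its RNA per cell cannot be told apart.

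*Marco* encodes a class A receptor that binds bacteria, particles and modified lipoproteins, and lies on chromosome 1 from 120474538 to 120505024. It stood at 2.18, 2.72 and 2.34 CPM in the nApoE4 controls and at 43.3, 51.9 and 53.2 CPM after nApoE4. In the other experiment it stood at 5.99, 6.01 and 5.55 CPM in the controls and at 81.8 and 81.6 CPM after nApoE3. Every treated sample was far above every untreated sample of either experiment. The rise was 20.5-fold with nApoE4 (log2 fold change 4.36, standard error 0.12, adjusted p = 2.35e-09) and 13.9-fold with nApoE3 (3.79, standard error 0.041, adjusted p = 4.06e-15).

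*Msr1* encodes the class A macrophage scavenger receptor, a trimer that binds acetylated lipoprotein and amyloid, and lies on chromosome 8 from 39543232 to 39642750. Its level was 60, 66.4 and 60.2 CPM in the nApoE4 controls and 36.5, 38.9 and 40.9 CPM after nApoE4. In the nApoE3 experiment it was 50.1, 51.3 and 51.9 CPM in the controls and 81.4 and 82.5 CPM with the fragment. The groups of each experiment did not overlap, and the direction was opposite. *Msr1* fell 1.60-fold with nApoE4 (log2 fold change −0.675, standard error 0.067, adjusted p = 1.94e-05) and rose 1.60-fold with nApoE3 (0.675, standard error 0.030, adjusted p = 8.83e-10).

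**Figure D1:**
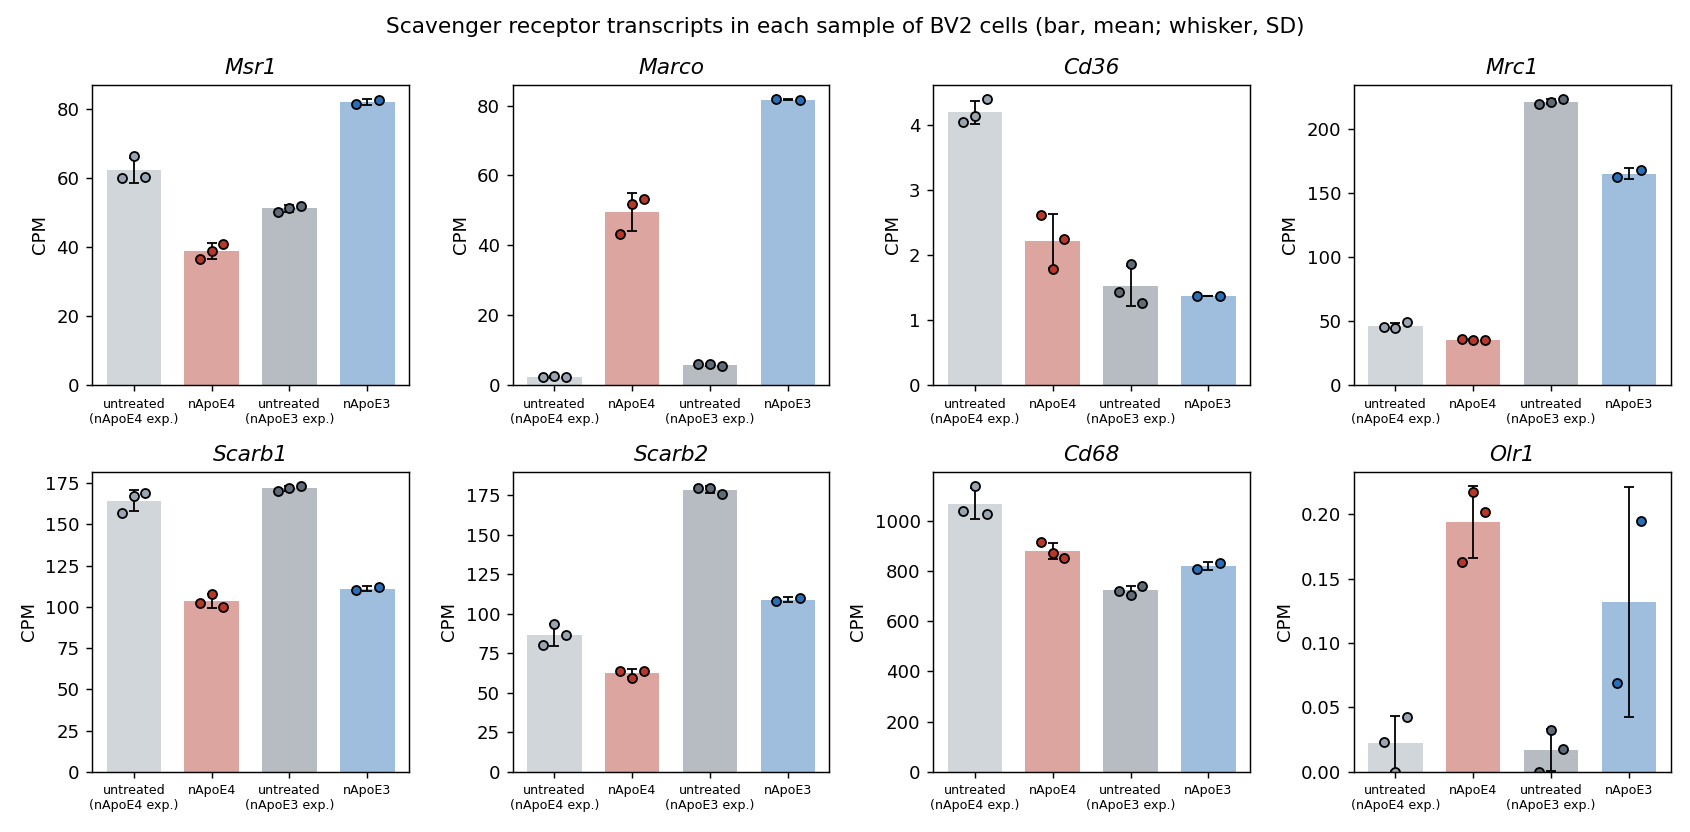
Level in CPM (counts per 1000000 of the normalized library size, vertical axes from 0) of each of the 8 scavenger receptor genes in the 11 samples. Points are samples, bars are group means and whiskers are SD (n = 3, 3, 3 and 2); Marco rises from at most 6.01 CPM to at least 43.3 CPM, while Msr1 goes down with nApoE4 and up with nApoE3.

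The class B receptors were mostly lower. *Scarb1* encodes SR-BI, the receptor that exchanges cholesterol with high-density lipoprotein, and lies on chromosome 5 from 125277087 to 125341094. It was at 157, 167 and 169 CPM in the nApoE4 controls and at 102, 108 and 99.9 CPM after treatment. In the nApoE3 experiment it was at 170, 172 and 173 CPM before and at 110 and 112 CPM after. These levels nearly coincided between the experiments, and in each the treated samples lay below the controls. *Scarb1* fell 1.59-fold with nApoE4 (log2 fold change −0.665, standard error 0.060, adjusted p = 9.83e-06) and 1.55-fold with nApoE3 (−0.63, standard error 0.025, adjusted p = 2.38e-10).

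*Scarb2* encodes LIMP-2, the lysosomal membrane protein that carries glucocerebrosidase to the lysosome, and lies on chromosome 5 from 92441311 to 92505657. It was at 80, 93.5 and 86.4 CPM in the nApoE4 controls and at 63.7, 59.4 and 63.9 CPM with the fragment. In the nApoE3 experiment it was at 180, 180 and 176 CPM in the controls and at 108 and 110 CPM with the fragment. Treated samples again lay below their own controls, although the nApoE3 samples were above the untreated cells of the other experiment. *Scarb2* fell 1.38-fold with nApoE4 (log2 fold change −0.47, standard error 0.069, adjusted p = 2.83e-04) and 1.65-fold with nApoE3 (−0.72, standard error 0.025, adjusted p = 8.62e-11).

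*Cd36*, the fatty acid and oxidized lipoprotein receptor, lies on chromosome 5 from 17781690 to 17888959 and was sparse, with 71 to 205 counts per sample. It was at 4.04, 4.13 and 4.39 CPM in the nApoE4 controls and at 2.61, 1.78 and 2.24 CPM after nApoE4. It was at 1.43, 1.86 and 1.26 CPM in the nApoE3 controls and at 1.36 and 1.36 CPM after nApoE3. The groups were apart in the first experiment and overlapped in the second. *Cd36* fell 1.88-fold with nApoE4 (log2 fold change −0.91, standard error 0.15, adjusted p = 6.57e-04). With nApoE3 the log2 fold change was −0.16, with a 95% interval from −0.59 to 0.26 (adjusted p = 0.476 from edgeR), which leaves room for a fall of the size of those of *Mrc1* and for none.

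*Mrc1* encodes the mannose receptor, a C-type lectin that takes up glycoproteins and is widely used as a marker of alternatively activated macrophages. It lies on chromosome 2 from 14229414 to 14332023. It was at 45.1, 44.8 and 48.8 CPM in the nApoE4 controls and at 35.6, 35.1 and 35.5 CPM after nApoE4. In the nApoE3 experiment the controls were at 219, 221 and 223 CPM and the treated samples at 162 and 168 CPM. The treated samples were lower than their controls in both, on levels that differed several-fold between the experiments. *Mrc1* fell 1.30-fold with nApoE4 (log2 fold change −0.38, standard error 0.059, adjusted p = 3.84e-04) and 1.34-fold with nApoE3 (−0.425, standard error 0.025, adjusted p = 1.17e-08).

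*Cd68* encodes macrosialin, a heavily glycosylated protein of late endosomes and lysosomes that serves as a general marker of macrophages, and lies on chromosome 11 from 69664213 to 69666170. It was at 1040, 1140 and 1030 CPM in the nApoE4 controls and at 916, 874 and 851 CPM after nApoE4. It was at 722, 707 and 742 CPM in the nApoE3 controls and at 810 and 833 CPM after nApoE3. The shifts were small against the level but larger than the spread between replicates, and they ran in opposite directions. *Cd68* fell 1.21-fold with nApoE4 (log2 fold change −0.27, standard error 0.071, adjusted p = 0.00807) and rose 1.13-fold with nApoE3 (0.18, standard error 0.024, adjusted p = 2.96e-05).

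*Olr1*, which encodes the lectin-like receptor LOX-1 for oxidized lipoprotein, lies on chromosome 6 from 129479150 to 129507350 and was close to the limit of detection. The nApoE4 controls held 1, 0 and 2 counts and the nApoE4 samples 7, 9 and 8. The nApoE3 controls held 0, 2 and 1 counts and the nApoE3 samples 4 and 11, so that every treated sample was above every control. Pooled over samples, the ratio of levels was 8.64 with nApoE4 (24 counts against 3, exact 95% counting interval 2.62 to 44.8) and 8.24 with nApoE3 (15 against 3, 2.33 to 44.4). These intervals cover counting error only, and the gene did not pass the filter on low counts, so it has no call in the tests. A RefSeq long noncoding gene, *Gm45969*, spans most of *Olr1* but is not among the genes that were counted. How reads there were assigned is not given in the sources used here.

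**Figure D2:**
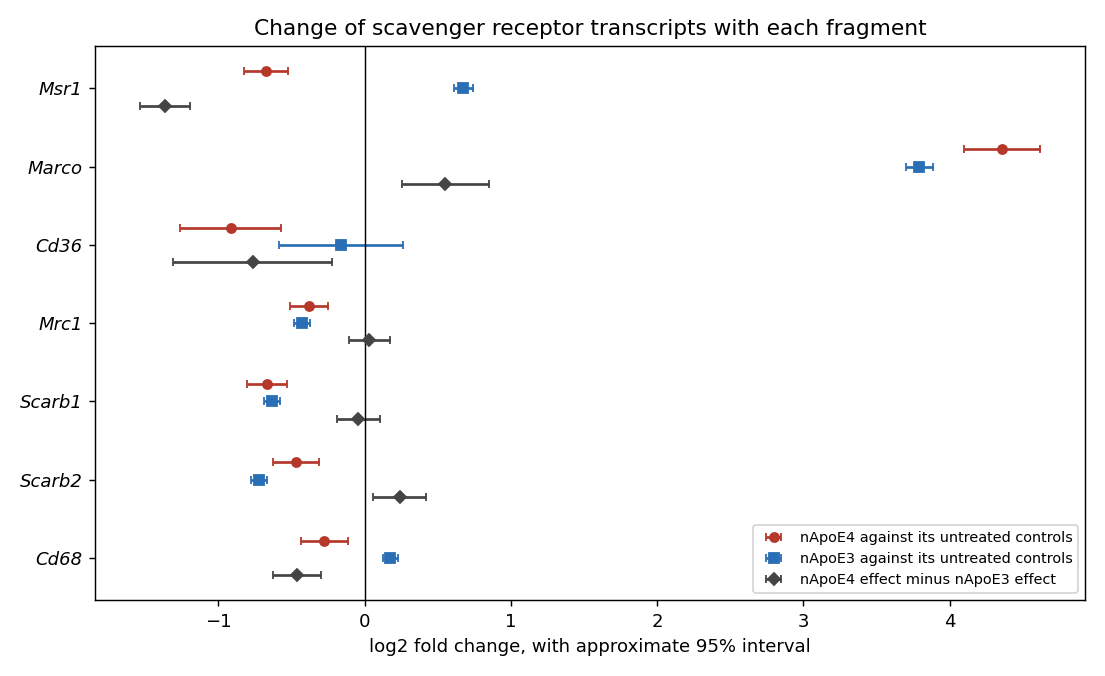
Log2 fold change (horizontal axis) of the 7 members tested, with approximate 95% intervals from edgeR, for nApoE4 against its controls (circles), nApoE3 against its controls (squares) and the nApoE4 effect minus the nApoE3 effect (diamonds). Msr1 and Cd68 lie on opposite sides of 0 with the fragments, Mrc1 and Scarb1 lie below 0 with both, and the interval of Cd36 with nApoE3 crosses 0.

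The response of the members was compared between the fragments as an interaction over all 11 samples, in which 28.3% of 15287 genes were called (14.4% with a higher value for nApoE4, 13.9% with a lower one). A difference above 2-fold was also called in 5.93% of genes (2.58% higher, 3.35% lower). The largest difference among the members, and the only one of that size, was that of *Msr1*, with a log2 value of −1.36 for nApoE4 minus nApoE3 (95% interval −1.53 to −1.19, adjusted p = 1.21e-07 from edgeR). *Cd68* had a value of −0.46 (−0.63 to −0.30, adjusted p = 5.71e-04). *Msr1* and *Cd68* were 2 of 255 genes that were called lower with nApoE4 and higher with nApoE3, 1.85% of the 13750 genes tested in both experiments. *Marco* rose more with nApoE4, by a log2 value of 0.55 (0.25 to 0.85, adjusted p = 0.00929), although its level after treatment was the higher one with nApoE3.

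*Mrc1* and *Scarb1* did not pass the threshold for a difference. The log2 value was 0.033 for *Mrc1* (95% interval −0.11 to 0.18, adjusted p = 0.755 from edgeR) and −0.042 for *Scarb1* (−0.19 to 0.10, adjusted p = 0.69). *Cd36* passed with a value of −0.76 (−1.31 to −0.22, adjusted p = 0.0377) and *Scarb2* with 0.24 (0.061 to 0.42, adjusted p = 0.0458). These 2 calls were fragile, since 9 of 16 alternatives for *Cd36* and 11 of 16 for *Scarb2* lost them, with adjusted p-values from 0.0136 to 0.131 and from 0.00173 to 0.183. Both were lost with replicate number as a block and when either nApoE3 sample, or replicate 1 or 3 of the nApoE4 controls, was left out. The other libraries whose removal ended the call were nApoE4 replicates 2 and 3 and nApoE3 control replicates 1 and 3 for *Cd36*, and nApoE4 replicates 1 and 3 and every nApoE3 control for *Scarb2*, whose call was also lost with DESeq2's size factors.

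The untreated cells of the 2 experiments already differed in these genes, as did 69.4% of all genes tested between them (34.3% higher in the nApoE4 controls, 35.1% lower). By more than 2-fold, 19.2% of genes differed (13% higher, 6.24% lower), among them 1 member higher and 3 lower. *Mrc1* was 4.78-fold lower in the nApoE4 controls than in the nApoE3 controls (log2 −2.26, standard error 0.045, adjusted p = 2.21e-12 from edgeR). *Marco* was 2.42-fold lower (−1.28, standard error 0.11, adjusted p = 3.31e-07) and *Scarb2* 2.06-fold lower (−1.04, standard error 0.055, adjusted p = 3.73e-09). *Cd36* was 2.76-fold higher (1.46, standard error 0.16, adjusted p = 3.34e-06), *Cd68* 1.48-fold higher (0.56, adjusted p = 5.01e-07) and *Msr1* 1.22-fold higher (0.28, adjusted p = 3.43e-04). *Scarb1* did not pass the threshold (−0.065, 95% interval −0.16 to 0.031, adjusted p = 0.208). For *Mrc1*, *Scarb2*, *Cd36* and *Cd68* the gap between the untreated groups was larger on the log2 scale than the change with either fragment.

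To set the genes beside each other, levels were divided by the length of their exons. In all 4 groups *Cd68* was highest, with a mean of 576 to 850 CPM per kilobase, and *Olr1* lowest, with at most 0.0543. In the nApoE4 controls *Scarb1* followed with 19.3 ± 0.797 (SD, n = 3), then *Scarb2* with 13.8 ± 1.08, *Msr1* with 9.8 ± 0.574 and *Mrc1* with 7.26 ± 0.355 CPM per kilobase. *Marco*, at 1.25 ± 0.144, and *Cd36*, at 1.17 ± 0.0514, came next and their samples overlapped. With nApoE4, *Marco* moved from place 6 to place 2, at 25.7 ± 2.81 CPM per kilobase, and the order of *Scarb1*, *Scarb2*, *Msr1* and *Mrc1* was kept.

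In the nApoE3 controls *Mrc1* was second, with 34.7 ± 0.254 CPM per kilobase (SD, n = 3), followed by *Scarb2* with 28.4 ± 0.342, *Scarb1* with 20.2 ± 0.141, *Msr1* with 8.06 ± 0.142 and *Marco* with 3.04 ± 0.134. With nApoE3, *Marco* again moved from place 6 to place 2, at 42.4 ± 0.0645 (SD, n = 2), ahead of *Mrc1* at 26.0 ± 0.643. *Scarb1* at 13.1 and *Msr1* at 12.9 then had overlapping samples. Neighbours in the order were otherwise apart in their samples in all 4 groups.

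**Figure D3:**
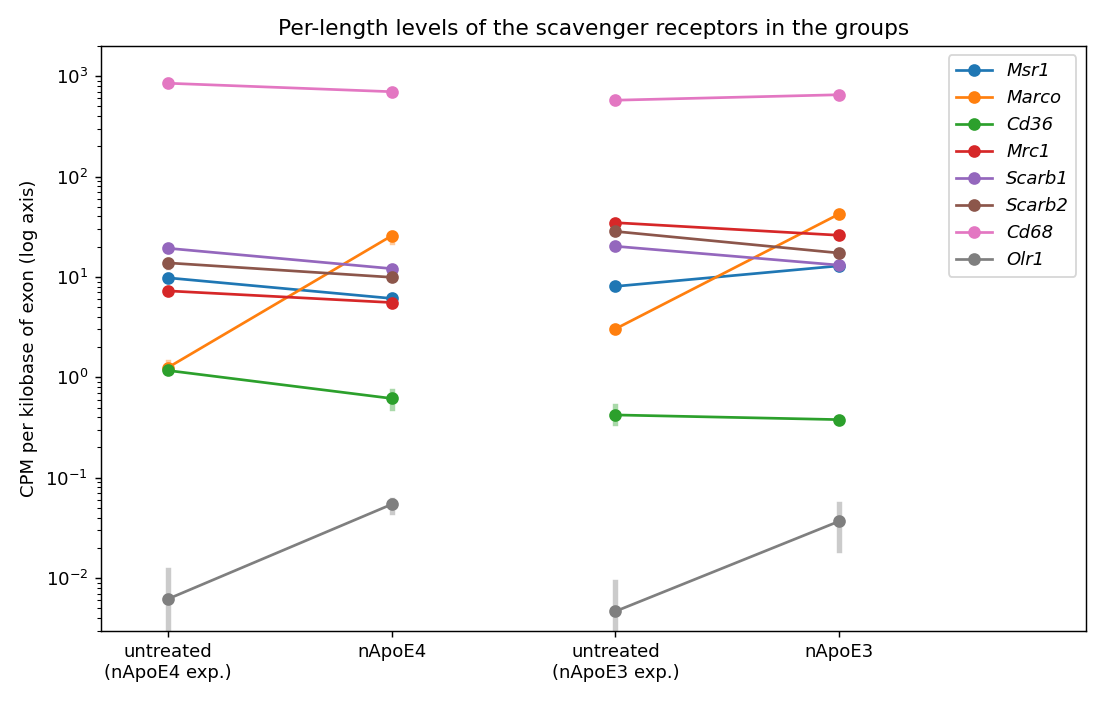
Mean level per kilobase of exon (log axis) of the 8 genes in the 4 groups, with lines joining each treated group to its own controls and pale bars spanning the samples (samples with 0 Olr1 counts lie below the axis). Marco is the line that climbs to place 2 with both fragments, while Mrc1 and Scarb2 start higher in the nApoE3 experiment.

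Of 15 other scavenger receptors, 9 were tested in each experiment, 2 higher and 6 lower with nApoE4 and 3 higher and 5 lower with nApoE3. Beside these counts and those of the lists below, 57.2% of all genes tested were called with nApoE4 and 67.7% with nApoE3. Replicates varied less in the nApoE3 experiment, with a coefficient of variation from edgeR of 0.0262 against 0.0838 in the nApoE4 experiment. Counts of calls with the fragments are therefore not directly comparable. The median log2 fold change of the other scavenger receptors was −0.79 with nApoE4 and −0.56 with nApoE3. Of the 6 not tested, *Clec7a* and *Ager* had 0 counts in every sample. Their overlaps with other genes were not checked, so these 0 counts need not mean absent RNA. *Cd44*, the hyaluronan receptor, rose from 218 ± 4.98 to 1060 ± 17.4 CPM with nApoE4 (SD, 3 samples each; log2 2.28, adjusted p = 3.19e-09 from edgeR), and by 1.72 on the log2 scale with nApoE3 (adjusted p = 1.36e-14). *Scara5*, a ferritin receptor of class A, was scarce and fell with both. It went from 0.727 ± 0.128 to 0.163 ± 0.0573 CPM with nApoE4, a log2 fold change of −2.14 (adjusted p = 3.00e-04). With nApoE3 it went from 4.64 ± 0.517 to 0.296 ± 0.0677 CPM, a log2 fold change of −3.97 (adjusted p = 2.49e-09). Its untreated level was 6.39-fold lower in the nApoE4 controls than in the nApoE3 controls (adjusted p = 3.70e-08 from edgeR). *Lrp2*, the endocytic receptor megalin, was also scarce, with group means of at most 4.57 CPM. It went down with nApoE4 (−0.79, adjusted p = 0.00491) and up with nApoE3 (2.04, adjusted p = 4.29e-08), as *Msr1* did.

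Of 10 nuclear receptors and transcription factors linked to scavenger receptor genes, 4 were higher and 5 lower with each fragment, with a median log2 fold change of −0.36 and −0.69. *Maf*, a factor of macrophage identity, and *Pparg* and *Rxra*, the partners that bind lipid response elements in genes such as *Cd36*, were among the lower ones. The log2 fold change of *Maf* was −1.73 and −1.86 with nApoE4 and nApoE3, that of *Rxra* −1.28 and −1.69, and that of *Pparg*, a gene at 1.45 CPM or less in every group, −2.47 and −1.63, all called.

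Of 12 genes that handle lipid and cholesterol after uptake, 2 were higher and 8 lower with nApoE4, and 5 higher and 6 lower with nApoE3, with medians of −0.31 and −0.11. *Nceh1*, a cholesteryl ester hydrolase, fell from 173 ± 9.27 to 76.6 ± 4 CPM with nApoE4 (log2 fold change −1.17, adjusted p = 3.66e-07 from edgeR) and from 196 ± 0.753 to 87.7 ± 0.329 CPM with nApoE3 (−1.17, adjusted p = 7.43e-13). *Abcg1*, which exports cholesterol, was lower with both, at −1.04 and −0.625 (adjusted p = 1.82e-06 and 1.94e-08). *Pltp*, the phospholipid transfer protein, was scarce and was lower with nApoE4 (−1.02, adjusted p = 0.00186) and higher with nApoE3 (0.68, adjusted p = 9.90e-04).

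Of 12 lysosomal genes, the neighbours of *Cd68* and *Scarb2* in the cell, none was called higher and 3 lower with nApoE4, and 4 were higher and 6 lower with nApoE3. Their median log2 fold change was −0.105 and −0.076. *Tfeb*, the transcription factor that governs lysosomal genes, was the one that changed by more than 2-fold, with log2 fold changes of −1.75 and −1.70 (adjusted p = 8.43e-08 and 7.10e-12 from edgeR). Of 11 endocytosis and signalling partners tested, 6 were higher and 3 lower with nApoE4, and 7 higher and 4 lower with nApoE3, with medians of 0.485 and 0.481. *Cd14* and *Tlr2*, which act with scavenger receptors in the binding of bacterial products, and the kinases *Src* and *Syk* rose with both. *Cd14* rose from 57.4 ± 9.87 to 386 ± 12.7 CPM with nApoE4 (log2 fold change 2.75, adjusted p = 3.88e-08) and from 32.6 ± 1.43 to 378 ± 4.21 CPM with nApoE3 (3.53, adjusted p = 1.08e-15). The log2 fold change of *Tlr2* was 2.67 and 2.50, of *Src* 2.93 and 3.44, and of *Syk* 1.74 and 1.59, all called. *Tlr6*, *Fyn* and *Tlr4* of this list are named here after their values were seen. *Tlr6*, a partner of *Tlr2*, was lower with nApoE4 (−0.43, adjusted p = 2.47e-04 from edgeR) and higher with nApoE3 (0.48, adjusted p = 2.25e-06). *Fyn* went the other way, at 0.95 with nApoE4 and −0.21 with nApoE3 (adjusted p = 1.22e-06 and 2.28e-04). *Tlr4* fell with both, at −1.56 and −0.795 (adjusted p = 1.75e-08 and 8.15e-10).

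**Figure D4:**
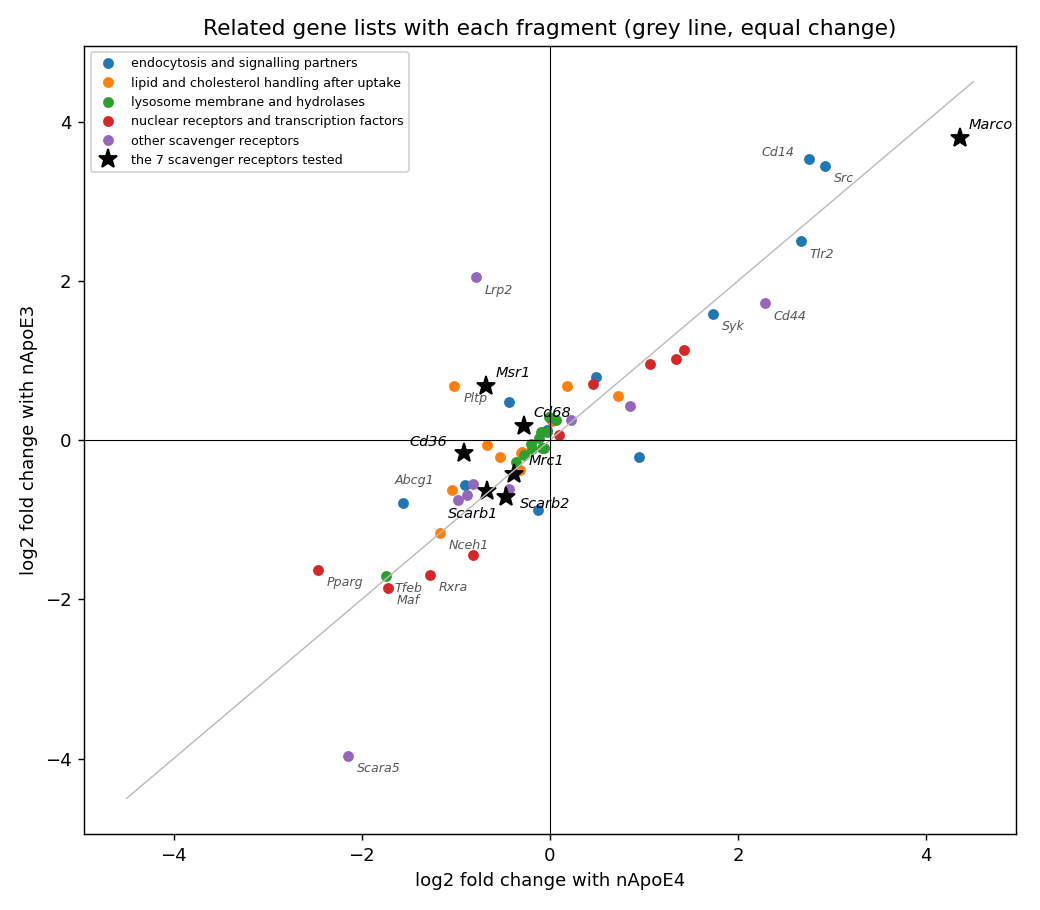
Log2 fold change with nApoE4 (horizontal) against that with nApoE3 (vertical) for the 7 members tested (stars) and genes of the 5 related lists tested in both experiments (coloured points, 2 list genes not drawn), with a grey line of equal change. Marco is at the upper right, and Msr1, Cd68, Lrp2, Pltp and an unlabelled point, Tlr6, lie in the upper left and were called lower with nApoE4 and higher with nApoE3.

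*Marco* alone among the 7 members tested changed by more than 2-fold, and 3 genes followed its pattern most closely over the 11 samples, judged by the root mean square difference of log2 CPM after each gene was centred on its mean, over 9033 genes with a mean log2 CPM above 3. These were *Cd38*, an ectoenzyme that consumes NAD (difference 0.361), *Slc7a11*, the cystine transporter of the glutathione pathway (0.362), and *Gpr84*, a receptor for fatty acids (0.389). *Cd38* rose from 1.57 ± 0.305 to 24.6 ± 0.241 CPM with nApoE4 (SD, n = 3 each) and from 5.37 ± 0.363 (n = 3) to 46.7 ± 1.86 CPM (n = 2) with nApoE3. *Slc7a11* went from 22 ± 1.54 to 592 ± 29.9 CPM and from 43.1 ± 0.937 to 1100 ± 96.9 CPM. In each of the 3 the untreated and the treated level were higher in the nApoE3 experiment, as for *Marco*. They were picked for likeness to it, so their values are a description and no test.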

How the data were processed

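Total RNA of 11 samples of BV2 cells was sequenced. Per the labels and the study's methods, the authors trimmed reads with Trim Galore 0.5.0, mapped them to GRCm38.p6 with HISAT2 2.1.0 and counted them with HTSeq 0.11.0. They deposited raw counts per gene symbol. The annotation release, strand setting and overlap mode are not given in the sources used here. Of all tallies, 76.03 to 77.71% were assigned to a gene, and the rest were left out.

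The tests used edgeR 4.0.16 in R 4.3.3 (filterByExpr, TMM, quasi-likelihood F test, Benjamini-Hochberg adjustment over all genes tested). nApoE4 was fitted with its 3 controls, nApoE3 with its 3 controls, and the difference between fragments and between controls over 11 samples. Standard errors and 95% intervals are approximate, from the F statistic. Scripts were tested on simulated counts. CPM used TMM-scaled libraries of all samples. Exon lengths came from GENCODE M21, which may differ from the authors' annotation. A floor of 3 counts equalled 0.043 to 0.0755 CPM.

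Members, lists and naming rule were chosen with earlier results of these data known. Named were all members, up to 4 genes per list with the largest change among those called with a fold above 2 and a group mean of at least 1 CPM, and the 3 genes most like each member changed above 2-fold. The values of 2 list genes that the rule names are not reported here. Alternatives were DESeq2 1.42.0, its size factors, other count filters, all 11 samples or the controls alone in a fit, a replicate block, leaving out each replicate, a fold above 2, and levels without gene length.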

Additional observations from a re-analysis of the deposited data

Results flagged for a closer look

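Among the members and the reported list genes that the naming rule picked, 13 responded differently to the fragments in the test of the difference itself (edgeR, adjusted p under 0.05). Those tested and not called were *Mrc1*, *Scarb1*, *Maf*, *Pparg*, *Nceh1*, *Tfeb*, *Tlr2* and *Syk*. Over all genes, 28.3% of the 15287 tested were called for this difference, and the list genes were picked for large changes with a fragment. Each of the 13 is given with its log2 value for the nApoE4 effect minus the nApoE3 effect. Of the scavenger receptors, *Msr1* had −1.36, *Cd36* −0.76, *Cd68* −0.46, *Scarb2* 0.24 and *Marco* 0.55. Of the other scavenger receptors, *Lrp2* had −2.85 (adjusted p = 1.17e-06), *Cd44* 0.55 (adjusted p = 1.91e-05) and *Scara5* 1.81 (adjusted p = 0.00498). *Scara5* averaged 0.163 and 0.296 CPM after nApoE4 and nApoE3, from unequal untreated levels of 0.727 and 4.64 CPM. The part of these levels in its difference was not tested. *Rxra* fell more with nApoE3, at 0.40 (adjusted p = 0.00296). *Pltp* had −1.71 (adjusted p = 2.60e-04) and *Abcg1* −0.43 (adjusted p = 0.00403). *Cd14* rose more with nApoE3, at −0.79 (adjusted p = 7.28e-04), as did *Src*, at −0.53 (adjusted p = 9.68e-04). The calls of *Cd36*, *Scarb2*, *Rxra* and *Abcg1* were lost with the replicate number as a block, at adjusted p-values of 0.131, 0.183, 0.0508 and 0.0638. The genes picked for their likeness to *Marco* are not in this count, since their measured levels chose them. The experiments had separate controls, and what sets them apart other than the fragment cannot be told apart from it.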

How the results depend on the processing

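The direction and call of the members were the same in 84 of 84 values under alternatives with nApoE4 and in 77 of 77 between the controls. With nApoE3 they were the same in 76 of 77, the exception being *Cd36*, uncalled throughout, which turned to 0.005 without nApoE3 control replicate 2 (range without 1 library −0.275 to 0.005). Requiring a fold above 2 left 1452 genes higher and 1063 lower with nApoE4, 1423 and 974 with nApoE3, 394 and 512 for the difference, and 1981 and 954 between the controls. Under it, 1 member stayed higher and 0 lower with nApoE4, 1 higher and 0 lower with nApoE3, and 0 higher and 1 lower for the difference. Between the controls 1 was higher, and *Mrc1*, *Marco* and *Scarb2* stayed lower. *Olr1* raised the members higher with nApoE4 to 2 with DESeq2 (adjusted p = 0.0167) and with genes of at least 1 count (adjusted p = 0.00316). With nApoE3 its adjusted p was 0.0729 and 0.0111.

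For the difference between the fragments, members with a higher value numbered 1 in place of 2 with DESeq2's size factors and with the replicate block, and 1 to 2 when a sample was left out. The block lowered the genes called to 1150 higher and 1157 lower, from 2208 and 2123, and ended the calls of *Rxra* and *Abcg1* as well as those of *Cd36* and *Scarb2*. It changed no member's call within an experiment. Deviations of same-numbered samples correlated at −0.172 to −0.0386 with nApoE4 and at −0.0126 and −0.00792 with nApoE3. Of the nApoE4 samples, 0 of 3 correlated best with their own number. With so few samples these values cannot tell whether same-numbered samples were paired. No block was possible between the control groups, whose numbers belong to separate experiments. Without one library each, the genes called for the difference ranged from 1547 to 2704 higher and 1493 to 2546 lower.

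The uncalled difference of *Nceh1* turned to 0.026 with genes of at least 1 count, and ranged from −0.054 to 0.034 without 1 library. That of *Slc7a11* ranged from −0.009 to 0.168, and *Abcg1* between controls from −0.018 to 0.039. Leaving out an nApoE3 sample leaves 1, taken to vary like the other groups. The causes were not tested. Without gene length, 9 of 32 places in the order of levels changed. *Olr1* held at most 11 counts in a sample and *Cd36* 71 to 205.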
